A study of Mus musculus with 6 samples.

Results

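The insulin-like growth factor (Igf) system was examined in whole mouse pancreas at embryonic stage E12.5 through 10 genes: the ligands Igf1 and Igf2, the receptors Igf1r and Igf2r, and the binding proteins Igfbp2 to Igfbp7. The genes were chosen by name, and each probe set whose platform annotation gives one of these symbols alone was read. This gave 28 probe sets of 45037 tested, or 10 of 18193 named genes. Pancreata came from 3 Hox6 null samples and from 3 wild type control samples, all of strain Bl6 and each on an array of its own. Hox6 stands for the paralogous homeobox genes Hoxa6, Hoxb6 and Hoxc6, and the labels say neither which part of each gene was disrupted nor how many embryos made up a sample. Samples are labelled as biological replicates without mention of litters, and p-values here reflect the spread of these arrays only. Values are log2 expression values after RMA (robust multi-array average), and the small number of arrays limits their precision.

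Igf1 and Igf2 are small secreted proteins related to insulin that promote growth through the receptor tyrosine kinase Igf1r. Igf2r, which also carries lysosomal enzymes tagged with mannose 6-phosphate, takes Igf2 up for breakdown in lysosomes, and in the mouse Igf2 is expressed mainly from the paternal and Igf2r mainly from the maternal allele. The Igfbp proteins bind the ligands outside the cell and hold them back from or deliver them to the receptor, and Igfbp7 is a relative with weaker affinity for the ligands. In the embryonic pancreas the mesenchyme around the branching epithelium is a source of growth factors, and Hox6 genes are known to be expressed in that mesenchyme.

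Arrays correlated with Pearson r of 0.980 to 0.987 among null samples, 0.994 to 0.995 among control samples and 0.979 to 0.990 between the groups. The pancreatic epithelium markers, 10 measured, read 9.73, 9.49 and 8.74 in the null arrays and 8.80, 8.49 and 8.53 in the control arrays. The mean levels of the macrophage, erythroid and mesothelium marker lists were lower in all null arrays. They were 7.36 to 7.84, 8.43 to 8.99 and 5.85 to 6.41 in null arrays, against 8.42 to 8.47, 9.28 to 9.30 and 6.92 to 7.12 in control arrays. Every null array was below every control array for 10 of 11, 4 of 8 and 5 of 7 of these markers, against 11.7% of all genes. Hbb-y (0.075) among the erythroid and Msln (0.015) among the mesothelium markers had a positive change. Gut epithelium markers read 4.46 to 4.66 in null and 4.11 to 4.42 in control arrays. Of these 7 markers, 0 had every null array above every control array, against 12.2% of all genes. One of them, Sox2, read 2.57, 2.70 and 5.40 in the null arrays, against 3.01, 3.12 and 2.54 in the control arrays. Spleen primordium markers, 4 measured, read 7.46, 7.47 and 8.57 in the null arrays and 8.43, 7.93 and 8.43 in the control arrays. Neuron and neural crest markers read 6.68 to 7.18 in null and 6.49 to 6.77 in control arrays. Of the targeted genes, Hoxb6 read 8.25, 8.71 and 8.91 in the null arrays, against 8.78, 8.97 and 9.36 in the control arrays, with overlapping groups and a difference of -0.42 (adjusted p = 0.393, limma). The 3 probe sets of Hoxc6 were higher on average in the null arrays, by 0.13 to 0.73, and the probe set with the largest difference read 4.63, 4.59 and 5.38 in the null arrays, against 4.24, 3.91 and 4.25 in the control arrays (adjusted p = 0.253, limma). No probe set was annotated to Hoxa6 alone, so Hoxa6 was not analysed here. Hoxb6 and Hoxc6 were thus not uniformly lower in the samples labelled null. A probe set outside the disrupted part checks nothing about the genotype.

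None of the 28 probe sets passed the test for a difference between Hox6 null and control pancreas. Igf1 was lower on average with all 4 of its probe sets, through low levels in null 1 and null 2 and not in null 3. Igfbp7 was higher in 3 of 3 null arrays with all 3 of its probe sets, by 1.29-fold to 1.36-fold on average. The other 8 genes differed by at most 0.44 on the log2 scale at every probe set, and Igf2 gave a small difference of opposite sign at each of its 2 probe sets. The count was 0 of 28 at an adjusted p under 0.05 (limma, Benjamini-Hochberg over all probe sets), against a background of 1 in 45037, or 0.00222%. At an unadjusted p under 0.05 (limma) it was 5 of 28, against 15.0% of all probe sets. With 1 probe set per gene, 0 of the 10 genes passed, against 0.0715% of all genes, and 1 of them, Igfbp7, had an unadjusted p under 0.05, against 17.0%. Groups did not overlap for 2 of the 10 genes, Igfbp7 and Igf2, against 23.8% of all genes, and for 8 of the 28 probe sets, against 22.0% of all probe sets.

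Promoter windows are shown for Igf1 and Igfbp7, whose 4 and 3 probe sets all lay on 1 side. The 2 probe sets of Igfbp3 and the 1 probe set each of Igfbp2 and Igfbp6 also lay on 1 side, and their windows are not shown. Also shown is the Igf2 window that held the only TAATTA among the 14 windows of the 10 genes. The windows are RefSeq promoters on GRCm38.p6, from 250 bases before to 50 bases after a transcript start, written 5′ to 3′ on the strand of the gene. Capitals mark TAAT or its reverse complement ATTA, the core bound by many homeodomain proteins. The Igf1 window is chr10:87860861-87861160 on the plus strand, the Igfbp7 window chr5:77407996-77408295 on the minus strand and the Igf2 window chr7:142658755-142659054 on the minus strand.
Igf1: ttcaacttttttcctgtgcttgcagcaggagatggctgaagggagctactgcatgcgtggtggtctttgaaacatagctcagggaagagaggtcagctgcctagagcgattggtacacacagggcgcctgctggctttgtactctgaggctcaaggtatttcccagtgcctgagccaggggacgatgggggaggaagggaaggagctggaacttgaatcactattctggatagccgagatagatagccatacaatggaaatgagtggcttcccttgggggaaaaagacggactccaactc
Igfbp7: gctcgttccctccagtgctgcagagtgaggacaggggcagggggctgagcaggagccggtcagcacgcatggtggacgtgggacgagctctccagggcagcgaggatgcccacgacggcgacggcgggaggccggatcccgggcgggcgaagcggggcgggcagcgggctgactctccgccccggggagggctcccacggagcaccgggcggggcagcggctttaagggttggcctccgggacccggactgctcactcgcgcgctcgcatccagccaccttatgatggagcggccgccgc
Igf2: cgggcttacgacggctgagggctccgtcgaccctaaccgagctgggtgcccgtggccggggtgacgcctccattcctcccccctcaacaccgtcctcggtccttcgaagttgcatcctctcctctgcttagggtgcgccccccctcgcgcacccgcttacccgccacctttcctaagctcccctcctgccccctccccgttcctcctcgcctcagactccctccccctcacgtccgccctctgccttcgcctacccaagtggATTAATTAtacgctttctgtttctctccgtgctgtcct
The Igf1 and Igfbp7 windows hold neither TAAT nor ATTA. Both occur in the Igf2 window, where 3 matches overlap within 1 stretch that includes TAATTA. Searched on both strands, TAAT was in 4 of the 14 windows, all 4 of them windows of Igf2, against 58.0% of all 32851 windows. TAATTA, each match of which is also a match of TAAT, was in 1 of 14 windows against 5.29% of all windows, and TGATNNAT (reverse complement ATNNATCA), a pattern bound by Hox proteins together with Pbx cofactors, was in 0 of 14 against 8.85%. These counts describe the letters of the windows, and no binding was measured.

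**Figure D1:**
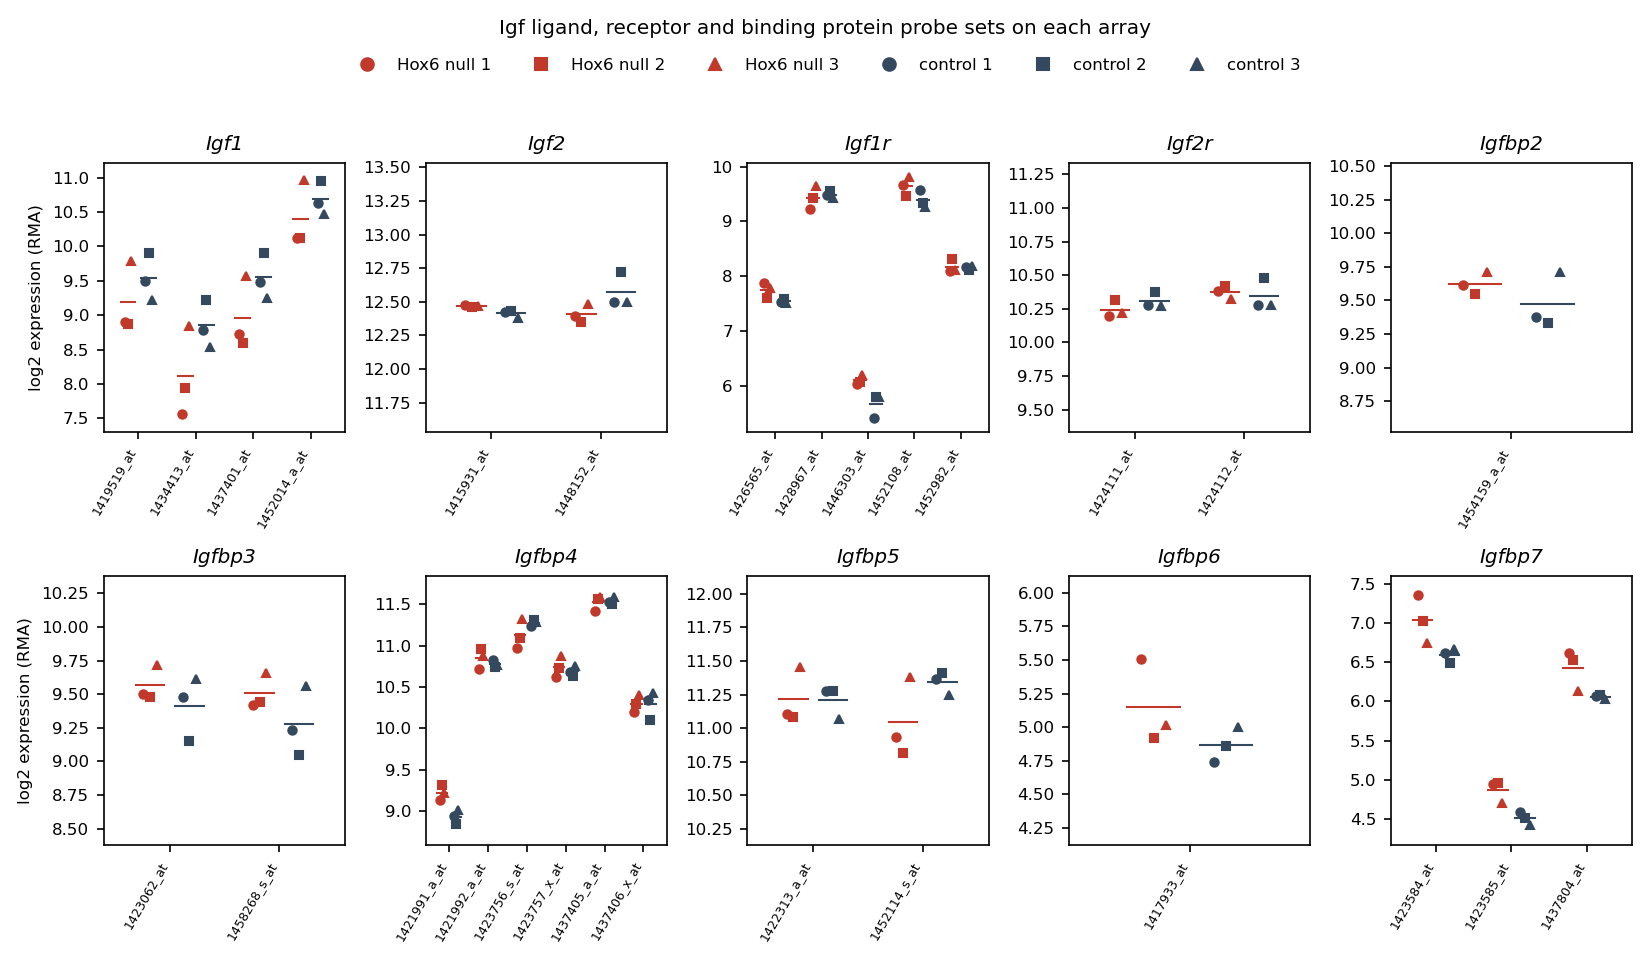
Level of each probe set on each array, grouped by gene. The vertical axis is the log2 expression value, symbols are single arrays (Hox6 null left, control right) and short lines are group means. Igf1 is low in null 1 and null 2, and Igfbp7 is higher in all 3 null arrays than in all 3 control arrays.

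Of the 28 probe sets, those of the ligand gene Igf1 had the widest range among the null arrays. Probe set 1434413_at read 7.56, 7.94 and 8.85 in null 1, null 2 and null 3, against 8.79, 9.23 and 8.54 in control 1, control 2 and control 3. Null 1 and null 2 lay below every control array, while null 3 lay between control 1 and control 2, so that the groups overlapped. The change was -0.74 ± 0.33 (SE), with a 95% interval of -1.51 to 0.034 and an adjusted p of 0.348 (limma). Probe set 1437401_at read 8.72, 8.60 and 9.57 in the null arrays, against 9.49, 9.91 and 9.26 in the control arrays. Null 1 and null 2 were again below every control array and null 3 within the control range, with a change of -0.59 ± 0.28 (SE) and an adjusted p of 0.371. Probe set 1452014_a_at, the brightest of the 4, read 10.12, 10.12 and 10.97 in the null arrays, against 10.64, 10.96 and 10.48 in the control arrays. It gave a change of -0.29 ± 0.25 (SE, adjusted p = 0.596), and 1419519_at gave -0.35 ± 0.28 (SE, adjusted p = 0.567). Over the 4 probe sets, null 1 and null 2 deviated from the control mean by -0.83 and -0.78 on average, and null 3 by 0.14.

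The Igf1 values depended on which arrays were used. Without null 3, the array whose Igf1 level matched the controls, the 4 changes lay between -1.10 and -0.57, and 1434413_at passed the test (adjusted p = 0.0464, limma). In that fit 1902 of 45037 probe sets passed, against 1 with all arrays, and 2 of the 28 probe sets passed, against 0. Without null 1 the 4 changes lay between -0.47 and -0.15, without null 2 between -0.65 and -0.15, and without control 2 between -0.55 and -0.16, with 0 of the 4 past the threshold in each of these fits.

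Markers of cell types moved with the arrays, and in whole organs fewer cells of a type and less RNA per cell cannot be told apart. The mean level of 13 epithelium markers was 9.59 in null 1 and 9.46 in null 2, but 8.63 in null 3, where controls read 8.59 to 8.64. Of these 13, 12 had a positive change and 4 had every null array above every control array, against 12.2% of all genes. With this level as a covariate the Igf1 changes turned to 0.27, 0.049, 0.034 and 0.29 (adjusted p of 0.669 to 0.981, limma). As the level was high in null 1 and null 2 only, this fit rests largely on null 3 against the controls. Null 3 minus the control mean was 0.25, -0.0046, 0.021 and 0.28 at the same probe sets. The fit cannot tell epithelium apart from other traits of null 1 and null 2. Spleen primordium markers, 4 measured, also split the null arrays, with mean deviations from the control mean of -0.81, -0.79 and 0.31. The mean level of 13 mesenchyme markers was 9.02, 9.06 and 9.02 in the null arrays, against 9.57, 9.74 and 9.58 in the control arrays. All 13 mesenchyme markers had a negative change, and 10 had separate groups, against 11.7% of all genes with every null array below every control array. Single markers differed in null 3: Tcf21, a transcription factor of organ mesenchyme, read 10.39, 10.25 and 11.24 in the null arrays, against 11.06, 11.23 and 11.26 in the control arrays, while Lum, a matrix proteoglycan, read 4.81, 4.76 and 4.49 in the null arrays, against 6.45, 7.59 and 6.38 in the control arrays. The part of mesenchyme or of spleen primordium in the Igf1 values was not tested. Liver markers, 9 measured, read 7.25, 7.43 and 6.84 in the null arrays and 7.22, 8.45 and 6.73 in the control arrays. Control 2, highest for the liver markers, was also the highest control array at all 4 Igf1 probe sets, and the part of liver tissue in this was not tested.

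**Figure D2:**
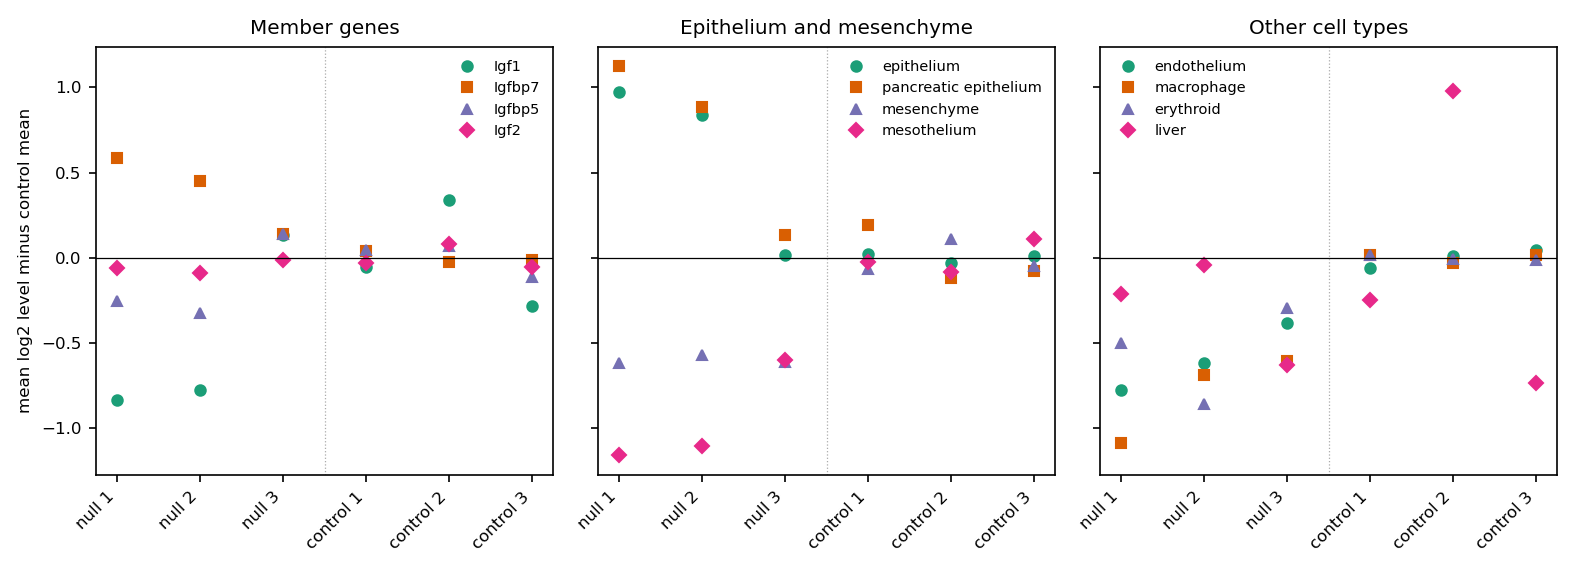
Mean log2 level minus the control mean for 4 of the genes (left, mean over the probe sets of a gene) and for marker lists (middle and right) on each array. In null 1 and null 2 Igf1 is below and the epithelium markers are above the control level, and in null 3 both are near it. Mesenchyme and mesothelium markers are low in all 3 null arrays. Spleen primordium markers, also lower in null 1 and null 2 than in null 3, are not shown.

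Igf2, the main fetal ligand, was among the brightest features of the arrays and differed little. Its probe set 1448152_at read 12.3963, 12.3502 and 12.4856 in the null arrays, against 12.5004, 12.7188 and 12.4983 in the control arrays. Every null array was below every control array, null 3 only narrowly, and the change was -0.16 ± 0.11 (SE, adjusted p = 0.510). Probe set 1415931_at read 12.47, 12.46 and 12.47 in the null arrays, against 12.42, 12.43 and 12.38 in the control arrays. Here every null array was above every control array, with a change of 0.054 ± 0.094 (SE, adjusted p = 0.801). The 95% intervals were -0.42 to 0.099 and -0.17 to 0.27, so the probe sets gave no common direction and neither interval reached 0.5 in size. Both probe sets lay at the 99.8th percentile of mean level over all probe sets. At 1448152_at control 2 was the highest array, as for Igf1, and without it the change was -0.089.

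The receptor gene Igf1r had 5 probe sets, with changes from -0.052 to 0.44. The largest was at 1446303_at, the dimmest of the 5, which read 6.04, 6.08 and 6.21 in the null arrays, against 5.42, 5.80 and 5.79 in the control arrays. The groups did not overlap and the change was 0.44 ± 0.14 (SE), with an adjusted p of 0.253, the smallest of the 28 probe sets. At 1426565_at the null arrays, at 7.88, 7.61 and 7.78, also lay above the control arrays, at 7.54, 7.59 and 7.51, with a change of 0.21 ± 0.11 (SE, adjusted p = 0.399). Groups overlapped at the 3 brighter probe sets. Of these, 1452108_at differed by 0.26 ± 0.14 (SE, adjusted p = 0.414), 1428967_at by -0.052 and 1452982_at by 0.016. The probe sets of Igf1r thus did not give 1 common value, and the difference between them was not tested.

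Igf2r, the scavenger receptor of Igf2, was nearly level across all arrays. Probe set 1424112_at read 10.38, 10.42 and 10.32 in the null arrays, against 10.28, 10.48 and 10.28 in the control arrays. The groups overlapped, with a change of 0.029 ± 0.11 (SE) and a 95% interval of -0.22 to 0.28. Probe set 1424111_at gave -0.064, with an interval of -0.30 to 0.17, and the adjusted p-values were 0.913 and 0.776.

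Igfbp7, a secreted protein of vessels and matrix, had a positive change at all 3 of its probe sets, each with separate groups. Probe set 1423584_at read 7.35, 7.02 and 6.74 in the null arrays, against 6.62, 6.49 and 6.67 in the control arrays. Null 1 was highest and null 3 closest to the controls, and the groups did not overlap. The change was 0.44 ± 0.16 (SE), with a 95% interval of 0.060 to 0.83 and an adjusted p of 0.293. Probe set 1437804_at read 6.62, 6.53 and 6.14 in the null arrays, against 6.07, 6.08 and 6.03 in the control arrays. The groups were again separate, with a change of 0.37 ± 0.14 (SE, adjusted p = 0.310). The dim probe set 1423585_at read 4.95, 4.96 and 4.70 in the null arrays, against 4.59, 4.51 and 4.42 in the control arrays, a change of 0.36 ± 0.12 (SE, adjusted p = 0.259). Across the 3 probe sets the mean deviation from the control mean was 0.58 in null 1, 0.45 in null 2 and 0.14 in null 3.

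Leaving out null 3 raised the Igfbp7 changes to 0.59 (1423584_at), 0.45 (1423585_at) and 0.51 (1437804_at). The last of these passed with an adjusted p of 0.0486 (limma), among 1902 of 45037 probe sets called in that fit. Leaving out null 1 lowered the Igfbp7 changes to 0.29, 0.33 and 0.27 in the same order, with adjusted p of 0.432, 0.387 and 0.470 (limma). With 1 probe set per gene, Igfbp7 was the single member of 10 that passed without null 3, among 1536 of 18193 genes called. With the epithelium marker level as a covariate the changes were 0.12, 0.20 and 0.066, again in that order, with adjusted p of 0.864, 0.691 and 0.911 (limma). That fit rests largely on null 3, which lay 0.15, 0.20 and 0.074 above the control mean at these probe sets. All 11 endothelium markers had a negative change, and 10 had every null array below every control array, against 11.7% of all genes. Their mean level was 7.77, 7.92 and 8.16 in the null arrays, against 8.48, 8.55 and 8.59 in the control arrays. The part of endothelium in the Igfbp7 values was not tested.

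**Figure D3:**
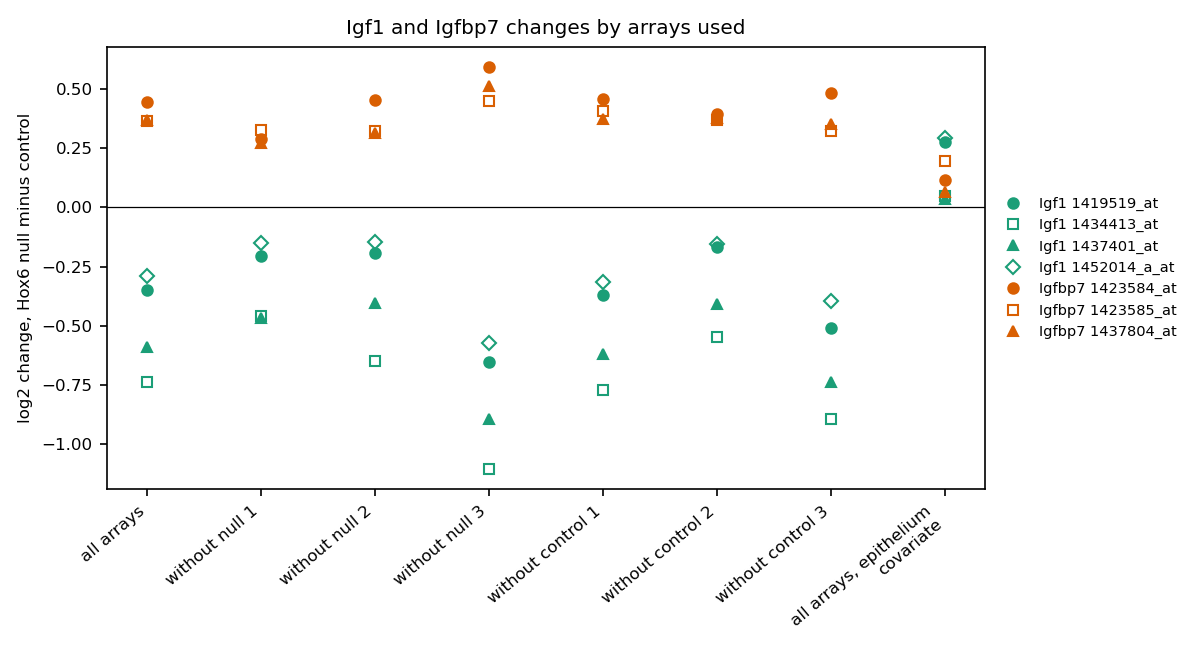
Log2 change (Hox6 null minus control) of each Igf1 and Igfbp7 probe set with all arrays, with each array left out and with the epithelium marker level as a covariate. Igf1 changes stay below 0 and Igfbp7 changes above 0 whichever array is left out, and both lie between 0.034 and 0.29 with the covariate.

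Igfbp4, which inhibits Igf action and is cleaved by the protease Pappa, was read by 6 probe sets that did not share a direction. At 1421991_a_at the null arrays read 9.13, 9.31 and 9.22, against 8.94, 8.85 and 9.01 in the control arrays. The groups did not overlap there, and the change was 0.29 ± 0.11 (SE, adjusted p = 0.290). At the other 5 probe sets the groups overlapped and changes lay between -0.15 and 0.067. The brightest, 1437405_a_at, read 11.42, 11.56 and 11.59 in the null arrays, against 11.53, 11.51 and 11.58 in the control arrays, a change of -0.016 with a 95% interval of -0.26 to 0.22.

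Igfbp5, a matrix-bound binding protein, shared part of the array pattern of Igf1. Probe set 1452114_s_at read 10.94, 10.81 and 11.38 in the null arrays, against 11.37, 11.41 and 11.25 in the control arrays. Null 1 and null 2 were below every control array and null 3 was within their range, for a change of -0.30 ± 0.16 (SE, adjusted p = 0.412), which was -0.47 without null 3 and -0.18 without null 2. Probe set 1422313_a_at read 11.10, 11.09 and 11.45 in the null arrays, against 11.27, 11.28 and 11.07 in the control arrays. Its change was 0.0069 ± 0.14 (SE, adjusted p = 0.985), with null 3 above and control 3 below all other arrays. Probe sets ending in _s_at can match transcripts of more than 1 gene and those ending in _x_at can cross-match, which also touches Igfbp3 and Igfbp4.

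The remaining binding protein genes had overlapping groups throughout. Igfbp2, abundant in fetal tissues, read 9.61, 9.55 and 9.71 in the null arrays, against 9.37, 9.33 and 9.71 in the control arrays, a change of 0.15 ± 0.13 (SE, adjusted p = 0.606). Igfbp3, a carrier of circulating Igf, had changes of 0.15 ± 0.15 and 0.23 ± 0.15 (SE) at its 2 probe sets, with adjusted p of 0.639 and 0.504. For both genes control 3 was the highest control array, within the range of the null arrays or above it. Without control 2, the lowest control array for both, the changes were 0.079 for Igfbp2 and 0.020 and 0.11 for Igfbp3, and without control 3 they were 0.27, 0.25 and 0.37. Without null 3 those of Igfbp3 were 0.076 and 0.15. Igfbp6, which prefers Igf2 as its ligand, was dim: it read 5.51, 4.92 and 5.02 in the null arrays, against 4.74, 4.86 and 5.004 in the control arrays. Its change of 0.28 ± 0.17 (SE, adjusted p = 0.467) came mainly from null 1, and without null 1 it was 0.098.

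**Figure D4:**
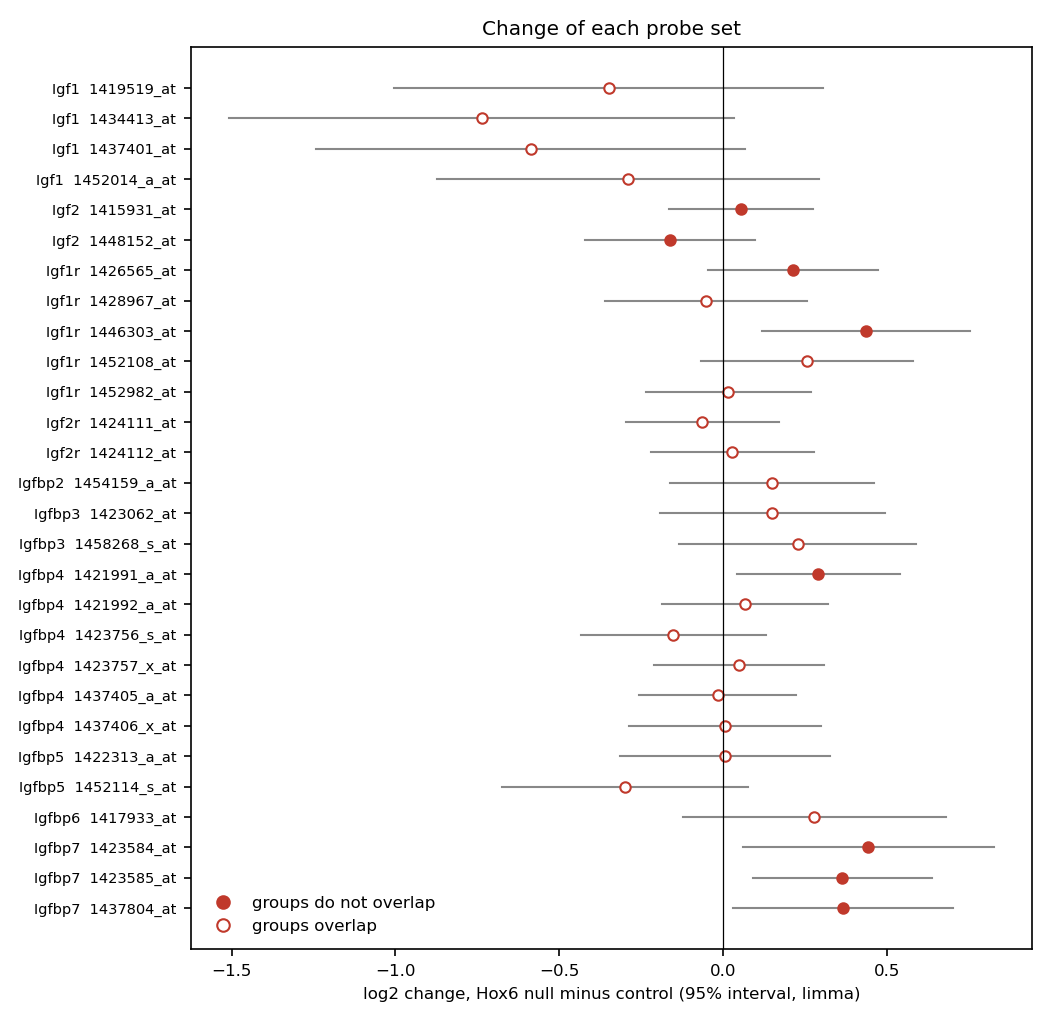
Log2 change of all 28 probe sets, Hox6 null minus control, with the 95% interval from limma on the horizontal axis. Filled points are the 8 probe sets whose groups did not overlap, 7 with the null arrays above and 1 with them below.

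Over all 28 probe sets, changes ran from -0.74 to 0.44, with 18 positive and 10 negative. Their median was 0.039, against 0.042 over all probe sets. Every null array was above every control array at 7 of 28, against 12.1% of all probe sets, and below at 1 of 28, against 9.89%. Of those 7, 3 belonged to Igfbp7, 2 to Igf1r, 1 to Igf2 and 1 to Igfbp4, and probe sets of 1 gene share its transcripts. An absolute change above 0.5 was found at 2 probe sets, both of Igf1, or 7.14%, against 7.11% of all probe sets.

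Genes with the most similar levels across the arrays were sought for Igf1, Igf2 and Igfbp7 among 9096 others at or above the median mean level. These values rest on 6 arrays that were normalized together. The Igf1 levels followed Plrg1, Uba6 and Polr3f most closely, with Pearson r of 0.993, 0.989 and 0.986. Those of Igf2 (1448152_at) followed Recql, Pkd1 and Cast (0.985, 0.982 and 0.982), and those of Igfbp7 (1423584_at) followed Prps2, Vps13a and Tnk1 (0.997, 0.993 and 0.991). None of these 9 genes had an adjusted p under 0.25 (limma, all genes), the smallest being 0.253 for Pkd1.

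Other genes of the pathway were read from 7 lists with 57 measured genes, each gene through its brightest probe set. None passed the test over all genes, and 9 had an unadjusted p under 0.05 (limma), or 15.8%, against 17.0% of all genes. Changes were positive for 26 and negative for 31, with a median of -0.017, against 0.033 over all genes.

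Around the ligands, Igfals, the subunit that stabilises Igf complexes in blood, read 5.91, 5.59 and 5.64 in the null arrays, against 5.30, 4.98 and 4.96 in the control arrays. The groups were separate at this low level, and the change was 0.63 ± 0.14 (SE, adjusted p = 0.158). Igfbp1 and Igfbpl1 differed by 0.16 and 0.19, with overlapping groups, and Igfbp1 was highest in null 2 (7.19) and control 2 (6.90). Among 5 proteases and protease inhibitors that act on binding proteins, 3 had a negative change. Pappa, the protease that cleaves Igfbp4, read 4.50, 3.66 and 4.15 in the null arrays, against 5.42, 5.35 and 4.01 in the control arrays, and its change of -0.83 ± 0.40 (SE, adjusted p = 0.338) rested on low levels with overlapping groups. The Pappa inhibitors Stc1 and Stc2 differed by -0.52 and 0.26, and the secreted protease Htra1 by -0.37, all with overlapping groups. Single arrays moved these values: without control 3 Pappa gave -1.28, Stc1 -0.35 and Stc2 0.43, without control 2 Stc1 gave -0.82, without control 1 Stc2 gave 0.13, and without null 3 Htra1 gave -0.16.

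Insulin receptor Insr read 8.08, 8.01 and 8.08 in the null arrays, against 7.99, 7.88 and 7.82 in the control arrays, a change of 0.16 ± 0.093 (SE, adjusted p = 0.395) with separate groups. Its other probe sets gave 0.048 and 0.12 with overlapping groups. The insulin gene Ins2 (0.40), the receptor relative Insrr (0.32) and the insulin-degrading enzyme gene Ide (0.11) had overlapping groups, as had Igf2bp3 (-0.013) and Igf2bp1 (0.0021), which encode RNA-binding proteins of Igf2 mRNA. Without null 1 the difference was 0.17 for Ins2 and 0.045 for Insrr, without control 2 it was 0.15 for Ins2, and without null 3 it was 0.58 for Insrr. Of 30 receptor adaptor and PI3K-Akt-mTOR-Foxo genes, 22 had a negative and 8 a positive change, with a median of -0.13. In 7 of them every null array was below every control array, against 11.7% of all genes. In 2 of them, Akt1 (0.31) and Foxo4 (0.11), every null array was above every control array, against 12.2%.

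The adaptor Irs1, which couples the activated Igf and insulin receptors to PI3 kinase, read 6.26, 6.41 and 6.94 in the null arrays, against 7.19, 7.12 and 7.31 in the control arrays. All null arrays were lower, with a change of -0.67 ± 0.18 (SE, adjusted p = 0.186). Irs4 was lower by a similar amount, -0.72 ± 0.22 (SE, adjusted p = 0.212), although its other probe set gave 0.21 and the mean over both was -0.25. Without null 2 it was -0.47. Pdpk1, the kinase that activates Akt, differed by -0.42 ± 0.14 (SE, adjusted p = 0.238), and Rheb, an activator of mTOR, by -0.26 ± 0.095 (SE, adjusted p = 0.254), both with separate groups. The other probe set of Pdpk1 gave -0.28 with overlapping groups. Without null 3, Irs1 (-0.87, adjusted p = 0.0123) and Pdpk1 (-0.56, adjusted p = 0.0249) passed over all genes (limma). Igfals (0.66, adjusted p = 0.0491) and Gnptab (0.47, adjusted p = 0.0374) also passed, among 1536 of 18193 genes called in that fit.

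Of 4 genes of the mannose 6-phosphate route that Igf2r serves, 2 had every null array above every control array, against 12.2% of all genes. Gnptab, a subunit of the enzyme that adds the tag, read 7.64, 7.61 and 7.46 in the null arrays, against 7.15, 7.21 and 7.09 in the control arrays. Its change was 0.42 ± 0.097 (SE, adjusted p = 0.164), while its other probe sets gave 0.15 and 0.17 with overlapping groups, and the mean over all 3 gave 0.25 (adjusted p = 0.328). Gnptg, another subunit, differed by 0.62 ± 0.17 (SE, adjusted p = 0.190), while Nagpa (0.031) and the other receptor M6pr (-0.017) had overlapping groups. Imprinted genes of fetal growth, the group in which Igf2 and Igf2r also fall, had a median of 0.017 over 10 measured genes and none past the threshold. Within it Phlda2 differed by 0.25, the noncoding Meg3 by 0.24, the cell cycle inhibitor Cdkn1c by -0.10 and Peg3 by 0.10, with adjusted p between 0.311 and 0.598.

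**Figure D5:**
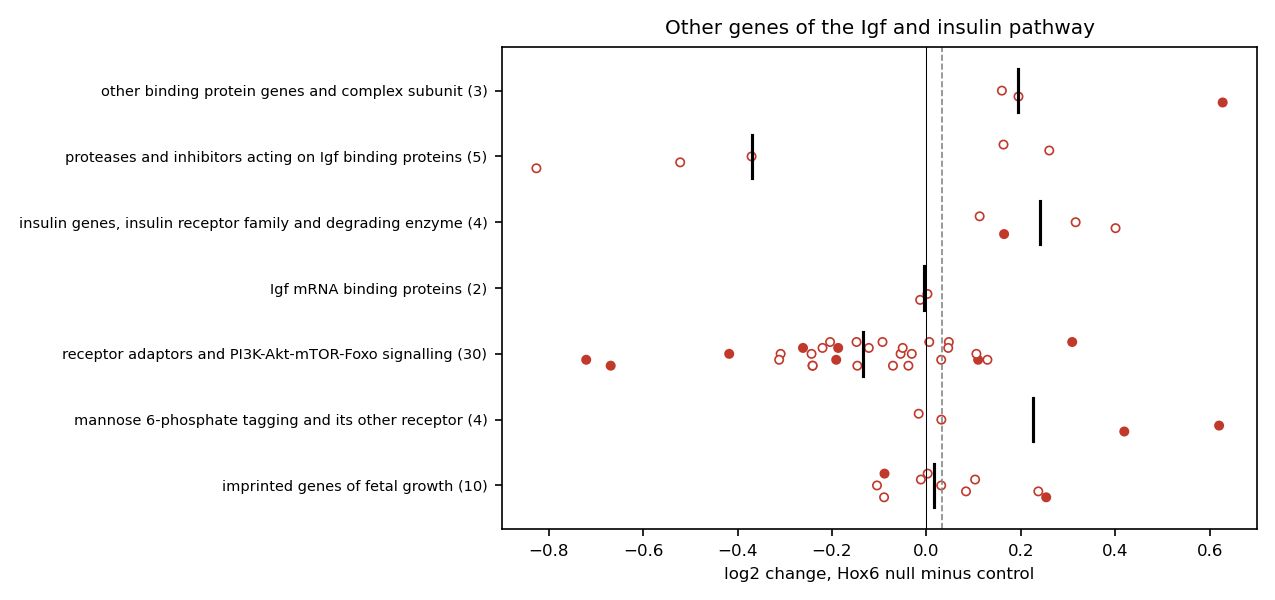
Log2 change (Hox6 null minus control) of the genes in 7 lists of the Igf and insulin pathway, with the number measured in brackets. Filled points have separate groups, thick bars are list medians and the dashed line is the median of all genes, 0.033. Grb10 belongs to 2 of the lists.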

How the data were processed

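Expression was measured in 3 Hox6 null and 3 control pancreas samples at E12.5. Per the labels' protocols, biotin-labelled cDNA was made from 10 ng of RNA by a NuGEN amplification kit. The authors deposited log2 values, 1 for each probe set and array. Per the submitters' processing notes, the authors used RMA, affy and limma, with versions not given in the sources used here. RMA values are relative to the set of arrays and understate changes of dim probe sets. No detection calls were used.

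The table held 45101 probe sets, of which 64 array controls were left out. Symbols came from the platform annotation, and the identifiers of all 28 member probe sets matched the reference gene table (GRCm38.p6) under the same symbol. The array values carry no genome build, so only promoter windows have coordinates. Groups were compared with limma 3.58.1 (lmFit and eBayes, R 4.3.3), genotype as the only term, two-sided, with Benjamini-Hochberg adjustment over 45037 probe sets and, separately, over 18193 genes (brightest probe set each) and a threshold of 0.05. The procedure was tested on simulated data. An exact permutation test of 3 against 3 cannot go below 0.1 and was not used.

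The text names all member genes, the targeted Hox genes, up to 4 genes of each pathway list by smallest p, and the 3 genes most correlated with Igf1, Igf2 and the member gene of smallest p. Other names, among them single cell type markers, Akt1, Foxo4 and the antisense transcripts, were chosen after values were seen. The members and lists were chosen with earlier results of these data known. Same-numbered null and control samples had deviations from their group means that correlated at 0.14, 0.0049 and 0.062, and the labels give no pairing. Alternatives covered normalization, filter, variance prior, array weights, replicate block, epithelium covariate, probe set choice, threshold and each array left out.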

Additional observations from a re-analysis of the deposited data

How the results depend on the processing

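None of the 28 probe sets passed under the 8 alternatives that kept all arrays, although the filter on dim probe sets left 25 of them to test; leaving out 1 array gave 0 to 2 calls by probe set and 0 to 1 by gene, with the 2 and the 1 found without null 3. Over all features, the 1 probe set and 13 genes called became 0 and 1 after repeated quantile normalization, 1 and 8 with median centring, 16 and 19 without dim probe sets, 63 and 74 with an intensity trend and robust prior, 41 and 155 with array weights, 12 and 23 with the epithelium covariate and 26 and 88 at a threshold of 0.1. Leaving out 1 array gave 0 to 1902 probe sets and 0 to 1536 genes. The replicate block gave 1 probe set and 0 genes, and 0 members. The cause of these differences was not tested. Of the 28 probe sets 3 lie below the median level (Igf1r 1446303_at, Igfbp6 and Igfbp7 1423585_at), where RMA understates changes.

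Of 389 values for the 28 probe sets under 14 alternatives, 361 kept sign and call, 26 changed sign at 13 probe sets and 2 gained a call. The dim filter, the trend and robust prior, the replicate block and the threshold of 0.1 leave the change itself unaltered. Under these only the call could differ, so their kept signs say nothing about stability. With the epithelium covariate the changes turned to 0.27, 0.049, 0.034 and 0.29 for Igf1, 0.18 and -0.030 for Igf1r (1428967_at, 1452982_at), -0.011 for Igf2r (1424112_at), 0.053 and 0.062 for Igfbp4 (1423756_s_at, 1437405_a_at) and 0.033 for Igfbp5 (1452114_s_at). In the lists they turned to -0.057 for Igfbp1, -0.25 for Insrr, -0.037 for Ide, 0.076 for Igf2bp3 and -0.064 for Nagpa. Values near 0 also turned with median centring (Igfbp4 1437406_x_at -0.0061, Igfbp5 1422313_a_at -0.0048, Igf2bp1 -0.0096), array weights (-0.028 and -0.040 for the same probe sets, M6pr 0.028), repeated quantile normalization (M6pr 0.011, Igf2bp3 0.0037) and the mean over probe sets (Ide -0.070). With 1 array left out, ranges that crossed 0 were -0.16 to 0.049 and -0.052 to 0.055 for Igf1r (1428967_at, 1452982_at), -0.0040 to 0.094 for Igf2r (1424112_at), -0.018 to 0.11, -0.050 to 0.037 and -0.089 to 0.075 for Igfbp4 (1423757_x_at, 1437405_a_at, 1437406_x_at) and -0.11 to 0.071 for Igfbp5 (1422313_a_at). In the lists they were -0.15 to 0.40 for Igfbp1, -0.025 to 0.19 for Ide, -0.059 to 0.016 for Igf2bp3, -0.049 to 0.063 for Igf2bp1, -0.048 to 0.089 for Nagpa and -0.095 to 0.10 for M6pr.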

Other observations

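Transcripts from the opposite strand of the ligand and receptor genes have probe sets of their own or shared ones. Of those given here, only 1 of Airn, 1451634_at (-0.012), also stands for its gene in the list of imprinted genes. The antisense transcript Igf2os read 6.19, 5.65 and 5.53 in the null arrays, against 5.66, 5.69 and 5.79 in the control arrays, a change of 0.073 (adjusted p = 0.860, limma over all probe sets). Igf1os was dim, at 4.31, 3.87 and 4.17 in the null arrays, against 3.97, 3.95 and 3.96 in the control arrays, a change of 0.16 (adjusted p = 0.588). One probe set annotated to both Airn, the noncoding RNA that silences the paternal Igf2r allele in the mouse, and Igf2r itself read 6.65, 6.55 and 6.45 in the null arrays, against 6.43, 6.49 and 6.52 in the control arrays, a change of 0.071 (adjusted p = 0.763). Of 5 probe sets annotated to Airn alone, 4 differed by -0.012 to 0.011. The other, 1457337_at, read 5.42, 5.68 and 5.31 in the null arrays, against 6.12, 5.75 and 5.76 in the control arrays, with separate groups and a change of -0.41 (adjusted p = 0.297).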
